A study of Mus musculus with 36 samples.

Results

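Imprinted genes were described across the RNA-seq and ATAC-seq samples of silenced and stimulated cortical neurons. The 36 genes were named one by one in a list, and the list was chosen on RNA values of these samples, since it was drawn up with the low level of H19 under KCl at 6 and 10 h in view. Of the 36, 33 were in the RNA table of 26709 genes and 32 had a mean of at least 10 normalised reads over the 18 RNA samples, the minimum for a test. Phlda2 was below that minimum, at 0 to 3.47 normalised reads in every sample. Snrpn, Snurf and Peg13 were not analysed here for RNA. In chromatin, 114 of 58177 ATAC peaks lay within 5 kb of a member gene, and 112 of them passed the same minimum.

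The cells were cortical neurons of CD-1 mouse embryos at embryonic day 15, kept in culture for 7 days. All groups first received AP-5 (100 µM, which blocks NMDA receptors) and TTX (1 µM, which blocks sodium channels) for 2 h, so the controls were silenced cells too. BDNF (10 ng/ml, a neurotrophin that acts through the TrkB receptor) or KCl (55 mM, which depolarises the membrane) was then given for 1, 6 or 10 h, and controls were left silenced in parallel, for 3, 8 or 12 h in all. Each of the 9 groups had 2 RNA and 2 ATAC samples, and the 6 controls were pooled as 1 group, as the study did. RNA libraries held 8.51 to 36.7 M reads and ATAC libraries 1.24 to 6.24 M reads in peaks. The labels do not say that the 2 samples of a group were separate cultures, so p-values measure the spread between these samples.

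An imprinted gene is transcribed mainly from the copy inherited from 1 parent, because a DNA methylation mark set in the egg or the sperm at an imprinting control region silences the other copy. Such genes lie in clusters that share a control region and often hold a long noncoding RNA. Many act on growth, placenta and brain, and several are transcribed from 1 parental copy in neurons but from both elsewhere. These data carry no allele information, so they give the level of each gene and not its imprinted state. Sequencing was not stated to keep strand, so the reads of overlapping partners (Mest and Copg2, Zrsr1 and Commd1, Ube3a and Snhg14, Gnas and Nespas, Igf2 and Igf2os, Usp29 and Zim3) cannot be told apart where their exons overlap, and H19 reads include those of its microRNA precursor.

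The sequences behind the chromatin results are shown first. AP-1, the dimer of Fos and Jun proteins, binds TGANTCA, and YY1, a zinc finger protein, binds GCCATNTT. Both strands were searched in 300 bases centred on each peak, and the first 4 windows shown are these. Such a window reaches past the ends of a narrower peak, and the match upstream of Peg13 lies at the edge of its peak. Capitals mark the matches (TGANTCA reads the same on both strands, and a YY1 match on the minus strand is shown as its reverse complement). Those 4 lie at peaks that gained accessibility with BDNF, each with 1 AP-1 match. The first 3 of them were chosen for their large change after values were seen. The Plagl1 peak was likewise taken as the promoter peak of its gene with the largest called change. The last 2 are not centred: each is the stretch of its peak with the most YY1 matches. The fifth is the start of the Ube3a promoter peak, which closed at KCl 1 and 10 h, with 1 YY1 match, where the centre of the peak holds 0. The last lies in an intron of Peg3, in the control region of the Peg3 domain, with 3 of the 9 YY1 matches of its peak, where the centre holds 1. All are on the plus strand of mm10.
Usp29 intron, chr7:6761090-6761389: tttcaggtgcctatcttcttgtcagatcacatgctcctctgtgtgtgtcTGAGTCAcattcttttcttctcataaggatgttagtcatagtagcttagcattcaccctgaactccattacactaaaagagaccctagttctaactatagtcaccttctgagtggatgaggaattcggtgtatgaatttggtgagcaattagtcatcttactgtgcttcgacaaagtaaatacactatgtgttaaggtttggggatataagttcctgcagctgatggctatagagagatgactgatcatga
Trappc9 intron, chr15:72660469-72660768: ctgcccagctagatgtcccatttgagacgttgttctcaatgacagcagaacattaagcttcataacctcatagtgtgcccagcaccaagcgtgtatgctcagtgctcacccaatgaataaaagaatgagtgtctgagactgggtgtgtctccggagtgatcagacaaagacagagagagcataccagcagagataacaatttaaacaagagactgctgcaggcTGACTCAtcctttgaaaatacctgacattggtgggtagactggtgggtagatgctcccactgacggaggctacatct
Peg13 upstream region in Trappc9, chr15:72813562-72813861: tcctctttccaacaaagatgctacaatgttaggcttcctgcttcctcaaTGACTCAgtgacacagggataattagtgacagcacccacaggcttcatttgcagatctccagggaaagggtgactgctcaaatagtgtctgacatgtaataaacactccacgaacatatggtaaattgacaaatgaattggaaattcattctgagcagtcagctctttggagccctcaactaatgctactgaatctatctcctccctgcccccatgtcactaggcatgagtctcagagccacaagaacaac
Plagl1 promoter, chr10:13060308-13060607: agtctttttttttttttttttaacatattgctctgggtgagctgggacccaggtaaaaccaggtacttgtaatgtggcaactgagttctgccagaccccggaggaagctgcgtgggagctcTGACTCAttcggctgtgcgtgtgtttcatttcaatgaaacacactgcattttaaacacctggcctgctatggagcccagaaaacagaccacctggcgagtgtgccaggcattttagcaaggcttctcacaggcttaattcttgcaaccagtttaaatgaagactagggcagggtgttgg
Ube3a promoter, chr7:59228331-59228630: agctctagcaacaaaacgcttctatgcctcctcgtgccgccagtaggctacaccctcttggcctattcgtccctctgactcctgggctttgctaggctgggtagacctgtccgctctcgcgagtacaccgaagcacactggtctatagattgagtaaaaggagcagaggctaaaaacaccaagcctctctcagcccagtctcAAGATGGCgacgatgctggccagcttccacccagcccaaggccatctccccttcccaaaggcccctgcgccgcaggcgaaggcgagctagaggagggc
Peg3 control region, chr7:6727672-6727971: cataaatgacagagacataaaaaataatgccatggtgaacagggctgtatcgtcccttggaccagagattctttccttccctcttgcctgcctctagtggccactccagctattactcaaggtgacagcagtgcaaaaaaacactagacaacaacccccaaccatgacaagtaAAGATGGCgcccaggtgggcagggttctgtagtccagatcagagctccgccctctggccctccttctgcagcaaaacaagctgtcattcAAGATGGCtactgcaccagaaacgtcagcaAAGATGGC

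Mirg is a noncoding RNA that hosts microRNAs, and it had one of the largest RNA changes. By RefSeq (GRCm38.p6), 14 microRNA genes with 26 mature microRNAs lie within it. Capitals mark the seed, bases 2 to 8, which pairs with targets. The microRNAs themselves were not measured here. Of the 26, 2 share a seed and are shown. Beside them stand miR-134-5p, which is known for acting in dendrites, and 2 others with seeds of their own.
miR-453: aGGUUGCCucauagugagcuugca
miR-496a-5p: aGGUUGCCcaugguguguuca
miR-134-5p: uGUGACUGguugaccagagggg
miR-382-5p: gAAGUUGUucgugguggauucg
miR-410-3p: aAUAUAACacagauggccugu

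In silenced controls the members spanned a wide range of levels. Per kb of exon, Nnat, which encodes the membrane protein neuronatin, was highest with a mean of 12410 normalised reads per kb. Meg3, the first noncoding RNA of the Dlk1-Dio3 domain, followed at 1915 and Ndn, which encodes the neuronal protein necdin, at 1170. Blcap was at 869, Nap1l5 at 443, Mest at 380.5, Igf2 at 364.0, Rian at 324.0 and Peg3 at 312. H19 was the 24th of 33, at 33.2 per kb, and Dlk1 the 30th, at 17.2. Airn (3.00 per kb) and Phlda2 (0.973 per kb) were lowest. Mest and Igf2 did not differ beyond their spread, since the SD of Mest over the controls was 583 on a mean of 1501 normalised reads.

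The identity of the cultures was checked with marker genes. All 10 neuron markers were present, with summed levels of 61030 to 68480 normalised reads in controls. Markers of other cells were present too. In controls, 8 glial markers summed to 18760 to 21550, 12 markers of mesenchyme, meninges and pericytes to 7360 to 11720, 5 of proliferating cells to 4183 to 6936 and 6 of endothelium to 275.8 to 1233. The proliferation markers were at 3707 to 4061 at BDNF 6 and 10 h and at 2948 to 3462 at KCl 6 and 10 h. In bulk samples, fewer cells of a type and less RNA per cell cannot be told apart.

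The log2 fold change (log2FC) below is on the log2(normalised reads + 1) scale. The next question was how many members each stimulus changed. Genes called at a Benjamini-Hochberg adjusted p below 0.1 (limma, over 16209 genes) are named DE-genes. At BDNF 1 h, 11 of the 32 members were higher than controls (34.4%) and 1 was lower (3.12%), where 21.3% and 19% of all genes were. At BDNF 6 h, 10 were higher (31.2%) and 5 lower (15.6%), against 22.1% and 21.1% of all genes. At BDNF 10 h, 10 were higher and 8 lower (25.0%), against 21.1% and 19.5%. Without BDNF 10 h library B, 11 members were called at that time. Taken by direction, the BDNF shares at 6 and 10 h thus lay nearer the background than those at 1 h. With both directions together, 37.5%, 46.9% and 56.2% of members were called at 1, 6 and 10 h. That lay below the share of all genes at 1 h and above it at 6 and 10 h.

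KCl at 1 h gave the most calls among the comparisons that the list did not use. There, 19 of 32 members were higher (59.4%) and 2 lower (6.25%), against 26.5% and 28.2% of all genes, and the median log2 fold change of the members was 0.32, that of all genes 0.00. Among 17 tested members transcribed from the paternal copy (by textbook knowledge, not measured here), 13 were higher and 1 was lower. Among 9 members listed as maternally expressed, 2 were higher and 1 was lower. Igf2r is among the 9, although Airn silences it outside neurons, and Grb10 is in neither list. At BDNF 1 h the paternal list had 7 higher and 1 lower, and the maternal list 3 higher and 0 lower (21.3% and 19% of all genes). The difference between the 2 lists was not tested. At KCl 6 h, 18 members lay past the threshold above controls and 6 below (33.4% and 33.1% of all genes), and at KCl 10 h 14 and 5 (29% and 28.2%). Nothing is read from these last counts, since the list was chosen with KCl at 6 and 10 h in view. All of these comparisons share the same 6 controls.

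**Figure D1:**
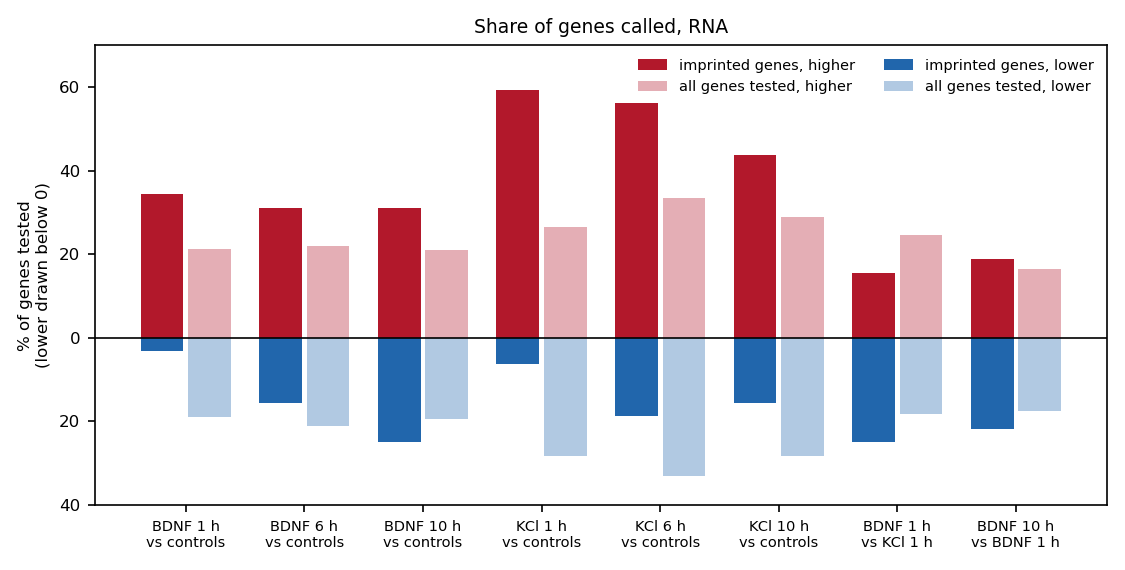
Share of genes called higher (bars up) or lower (bars down, sizes read as positive) in %, for the 32 imprinted genes (dark bars) and all 16209 genes (pale bars) in 8 RNA comparisons. The dark bar for KCl 1 h reaches 59.4% higher, beside 26.5% of all genes, while KCl 6 h and 10 h are shown as a description because the list was chosen with them in view.

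Stimuli and times were also compared directly. At 1 h, 5 members were higher and 8 lower with BDNF than with KCl, against 24.6% and 18.2% of all genes. With DESeq2 on whole reads the split was 3 higher of 11. Between BDNF 1 h and BDNF 10 h, 6 members were higher at 10 h and 7 lower, against 16.4% and 17.5% of all genes. The controls were also compared among themselves. Against controls of 1 h, limma called 0% of genes at 6 h and 0% at 10 h, with 164 and 181 genes at a raw p under 0.05, among them 0 and 2 members. Those numbers are well below a share of 0.05 of the 16209 genes. The 2 controls of 1 h differed from each other, with endothelium markers at 275.8 and 913.8 summed normalised reads. The 0 calls thus do not show that the control times were alike. edgeR and DESeq2 on whole reads also called 0 members at both times.

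**Figure D2:**
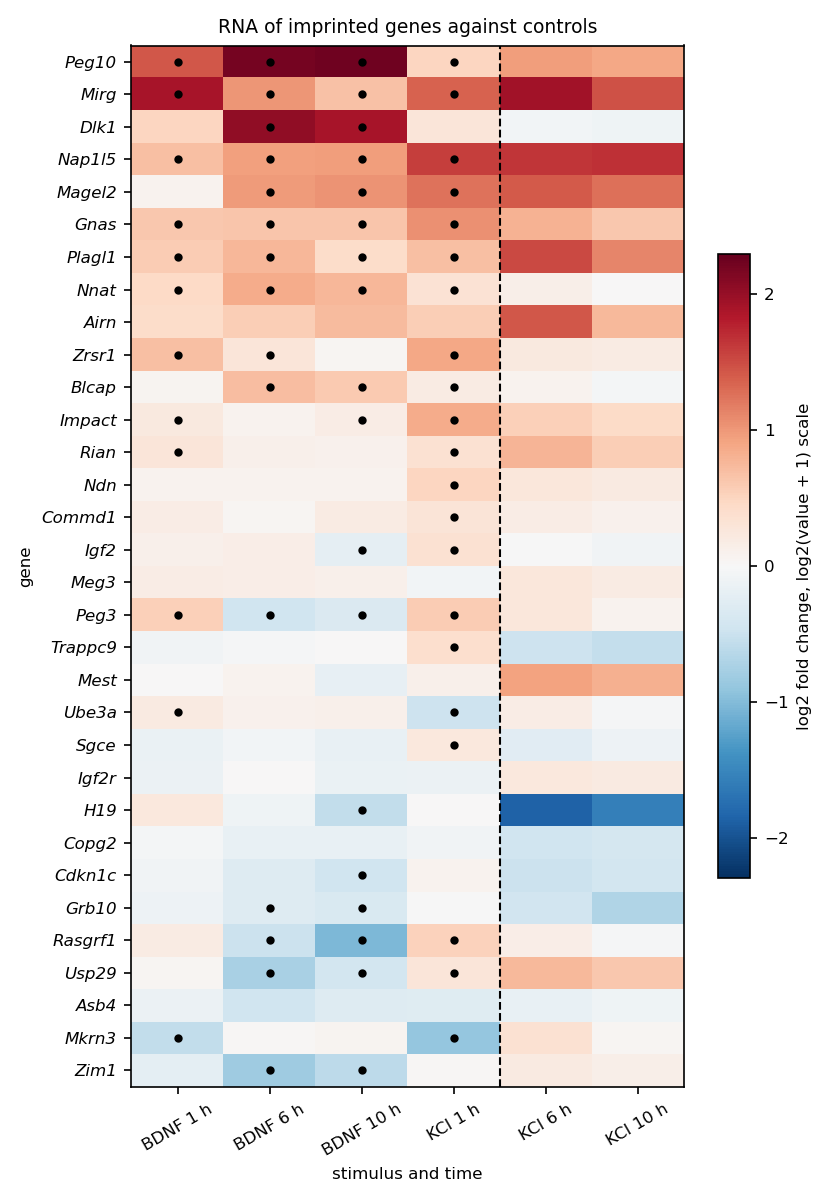
Log2 fold change of 32 imprinted genes (rows, ordered by their mean over the first 4 columns) against controls at each stimulus and time (columns), from blue (lower) to red (higher), with a dot where limma called the gene. Right of the dashed line, KCl 6 h and 10 h are shown without dots because the list was chosen with them in view. Peg10 and Dlk1 stand out at BDNF 6 and 10 h, Mirg at BDNF 1 h, and H19 at KCl 6 and 10 h.

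H19 (chr7:142575529-142578143, minus strand) is a maternally expressed noncoding RNA that shares a control region and enhancers with the growth factor gene Igf2. It had 56.78, 85.61 and 98.53 normalised reads as the lowest, median and highest of the 6 controls. The BDNF samples had 106.4 and 84.72 (1 h), 70.26 and 80.51 (6 h) and 51.99 and 56.0 (10 h). The KCl samples had 83.97 and 78.06 (1 h), 23.6 and 19.68 (6 h) and 24.45 and 28.32 (10 h). The 4 samples of KCl 6 and 10 h thus lay below every control, while those of KCl 1 h lay among them. Against controls the mean was 3.62-fold lower at KCl 6 h (log2FC of -1.86) and 2.99-fold lower at KCl 10 h (-1.58), values that are given as a description because H19 was selected on them. These rest on few reads, 17 to 26 per library.

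H19 was then tested with BDNF. The 6 controls are those of the KCl comparisons that it was selected on. Tests against them are thus not independent of that choice. At BDNF 10 h H19 fell by 0.57 on the log2 scale (SE 0.18, adjusted p 0.0191, limma), and both samples lay below all 6 controls. The call was lost without BDNF 10 h library A (-0.52) and with the 3 controls lowest in endothelium markers (-0.39). Markers of mesenchyme, meninges and pericytes were lower at BDNF 10 h, at 6411 to 6557 summed normalised reads against 7360 to 11720 in controls. Of the 12, 5 were called lower, beside 19.5% of all genes. They were at 6366 to 8119 at BDNF 6 h, and at 7604 to 9671 at KCl 6 h, where H19 was lowest. The part of these markers in the late BDNF values of H19 and its neighbour Igf2 was not tested. From BDNF 1 h to 10 h H19 fell by 0.80 (adjusted p 0.00943, limma), a call lost without BDNF 1 h library A (-0.64). At KCl 1 h the difference from controls was 0.01 (SE 0.18, adjusted p 0.981). No peak was analysed within 5 kb of H19, Igf2, Rian or Dlk1.

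Igf2 (chr7:142650766-142666816) lies next to H19. Its mean was 2083 ± 180 (SD, n = 6) in controls and rose at KCl 1 h to 2647 ± 49.3 (n = 2), a log2 fold change of 0.35 (adjusted p 0.000746, limma). At BDNF 10 h it fell by 0.20 (adjusted p 0.0509), and from BDNF 1 h to 10 h by 0.32 (adjusted p 0.0159, limma), so both genes were called lower in these comparisons. At KCl 6 and 10 h it was at 2070 ± 60.7 and 1957 ± 17.7, the groups in which H19 was lowest. Igf2r, the receptor that clears the IGF2 protein, was at 860 ± 65.5 in controls and was called in none of the BDNF comparisons or at KCl 1 h (log2 fold changes of -0.16 to 0.02). Airn, the noncoding RNA that silences Igf2r in cis outside neurons, was rare, with 3 to 40 reads per library. In controls it had 3.605, 12.28 and 14.52 normalised reads as lowest, median and highest. BDNF samples had 13.69 and 13.74 (1 h), 18.02 and 12.81 (6 h) and 19.21 and 15.14 (10 h), and KCl 1 h samples 19.76 and 11.76. None of these differences passed the test. At KCl 6 h it had 33.43 and 24.31, above every control, and at KCl 10 h 18.33 and 16.34.

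Cdkn1c and Grb10 restrain growth. Cdkn1c, a cyclin-dependent kinase inhibitor, went from 244.0 ± 47.1 in controls to 176 ± 13.6 at BDNF 10 h (log2FC of -0.45, adjusted p 0.0358, limma), and its difference at BDNF 6 h was not called (-0.30, adjusted p 0.147). Grb10, an adaptor that dampens insulin receptor signalling, fell at BDNF 6 h (-0.29, adjusted p 0.0268) and 10 h (-0.35, adjusted p 0.0108). In the late KCl samples Cdkn1c lay at -0.49 and -0.42 and Grb10 at -0.43 and -0.69 relative to controls. Markers of proliferating cells were lower too. Of 5 tested, 3 fell at BDNF 6 h and 4 at BDNF 10 h, beside 21.1% and 19.5% of all genes. Their part in the result was not tested. A list of growth control and signalling members had 9 tested: H19, Igf2, Igf2r, Grb10, Cdkn1c, Dlk1, Rasgrf1, Plagl1 and Gnas. At BDNF 1 h 2 rose (22.2%) and 0 fell, beside 21.3% and 19% of all genes. At BDNF 6 h 3 rose (33.3%) and 2 fell (22.2%), beside 22.1% and 21.1%. At BDNF 10 h 3 rose and 5 fell (55.6%), beside 21.1% and 19.5%. At KCl 1 h 4 rose (44.4%) and 0 fell, beside 26.5% and 28.2%.

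Plagl1 (chr10:13060504-13131694), a zinc finger transcription factor that drives other imprinted growth genes, rose with both stimuli. It had 490.9, 664.4 and 873.1 normalised reads as lowest, median and highest of the controls. Under BDNF the values were 965.6 and 1040 (1 h), 1137 and 1120 (6 h) and 861.3 and 915.7 (10 h). Under KCl the values were 994.0 and 1155 (1 h), 1867 and 1967 (6 h) and 1386 and 1505 (10 h). Except for BDNF 10 h, the stimulated samples lay above every control. It rose by 0.59 at BDNF 1 h (adjusted p 0.0114, limma), 0.76 at BDNF 6 h and 0.68 at KCl 1 h. The call of 0.41 at BDNF 10 h (adjusted p 0.0636) was lost without either BDNF 10 h library and with controls of the same time, and that at BDNF 1 h without BDNF 1 h library B.

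Gnas and Rasgrf1 act in signal transduction. Gnas encodes the G protein subunit that activates adenylyl cyclase. Its controls had 409.2, 550.2 and 642.3 as lowest, median and highest. BDNF samples had 799.8 and 842.6 (1 h), 862.1 and 804.2 (6 h) and 765.2 and 911.2 (10 h), and KCl 1 h samples 1057 and 1176. Late KCl samples had 1116 and 786.0 (6 h) and 946.0 and 718.8. (10 h) All stimulated samples lay above every control. It rose by 0.62, 0.64 and 0.64 on the log2 scale across the BDNF times and by 1.06 at KCl 1 h (adjusted p 0.00784, 0.00607, 0.00687 and 5.77e-05, limma). The BDNF 10 h call was lost without library B (0.52).

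Rasgrf1, which encodes a calcium-sensitive activator of Ras, moved in opposite directions with stimulus and time. Its controls had 175.4, 245.4 and 306.0 as lowest, median and highest. BDNF gave 288.9 and 242.7 (1 h), 181.1 and 151.0 (6 h) and 130.0 and 99.9 (10 h). KCl gave 363.0 and 312.2 (1 h), 300.9 and 224.6 (6 h) and 276.2 and 187.3 (10 h). Both BDNF 10 h samples lay below every control and both KCl 1 h samples above. At BDNF 10 h it was 2.04-fold lower (log2FC of -1.03, SE 0.22, adjusted p 0.00211, limma), and 1.21 lower than at BDNF 1 h (adjusted p 0.00322). The call of -0.49 at BDNF 6 h was lost in 6 of the fits that left out 1 library, and that of 0.53 at KCl 1 h without either KCl 1 h library.

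Peg10 (chr6:4747306-4760517, plus strand), a gene derived from a retrotransposon and needed in the placenta, had the largest rise with BDNF among the members. Controls had 1366, 1846 and 2149 normalised reads as lowest, median and highest. The BDNF samples had 4699 and 5043 (1 h), 8536 and 8254 (6 h) and 8512 and 8540 (10 h). The KCl samples had 2478 and 2614 (1 h), 3586 and 3533 (6 h) and 3332 and 3442 (10 h). No stimulated sample overlapped the controls, and no KCl sample reached a BDNF sample. Peg10 rose 2.68-fold at BDNF 1 h, 4.62-fold at 6 h and 4.69-fold at 10 h (log2 fold changes 1.42, 2.21 and 2.23, SE 0.12, adjusted p 3.65e-08, 1.78e-10 and 2.81e-10, limma), and 1.40-fold at KCl 1 h (0.49, adjusted p 0.00216). At 1 h it was higher with BDNF than with KCl by 0.94 (adjusted p 5.24e-05).

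Sgce, which encodes a sarcoglycan of the cell membrane, starts next to Peg10 on the other strand and shares its control region, yet none of its BDNF differences passed the test. The differences from controls were -0.15, -0.06 and -0.17 for the BDNF times, and 0.24 at KCl 1 h (adjusted p 0.0700). Asb4, farther along this domain, was called in none of the BDNF comparisons or at KCl 1 h (-0.46 to -0.14). Mest, which encodes a hydrolase-like protein, varied widely among controls, with 783.8, 1440 and 2381 as lowest, median and highest. BDNF samples had 1364 and 1478 (1 h), 1276 and 1749 (6 h) and 1233 and 1238 (10 h), and KCl 1 h samples 1282 and 1825, all within the range of the controls. Late KCl samples had 2292 and 3120 (6 h) and 2176 and 2838. (10 h) The 3 controls highest in Mest (1 h B, 6 h B and 10 h A) were also the 3 highest in endothelium markers, at 897.6 to 1233 summed normalised reads against 275.8 to 465.1 in the others. In each stimulated group, the library higher in Mest was also the one higher in these markers. The part of such cells was not tested. Copg2, which overlaps Mest on the opposite strand, had log2 fold changes of -0.17 to -0.04 with BDNF and -0.09 at KCl 1 h, none called.

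Nap1l5 (chr6:58905233-58907076), an intronless gene related to histone chaperones, lies within an intron of Herc3. Controls had 737.3, 820.4 and 902.6 as lowest, median and highest. Under BDNF the values were 1375 and 1264 (1 h), 1614 and 1520 (6 h) and 1511 and 1663 (10 h). Under KCl the values were 2672 and 2241 (1 h), 2573 and 2514 (6 h) and 2530 and 2668 (10 h). Every stimulated sample lay above every control, and every KCl sample above every BDNF sample. It rose 1.62-fold at BDNF 1 h (log2FC of 0.69), 1.95-fold at BDNF 10 h (0.96) and 3.00-fold at KCl 1 h (1.59, adjusted p 1.20e-12 by limma, SE 0.08). The direct comparison put it lower with BDNF than with KCl by 0.89 (adjusted p 4.65e-07).

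**Figure D3:**
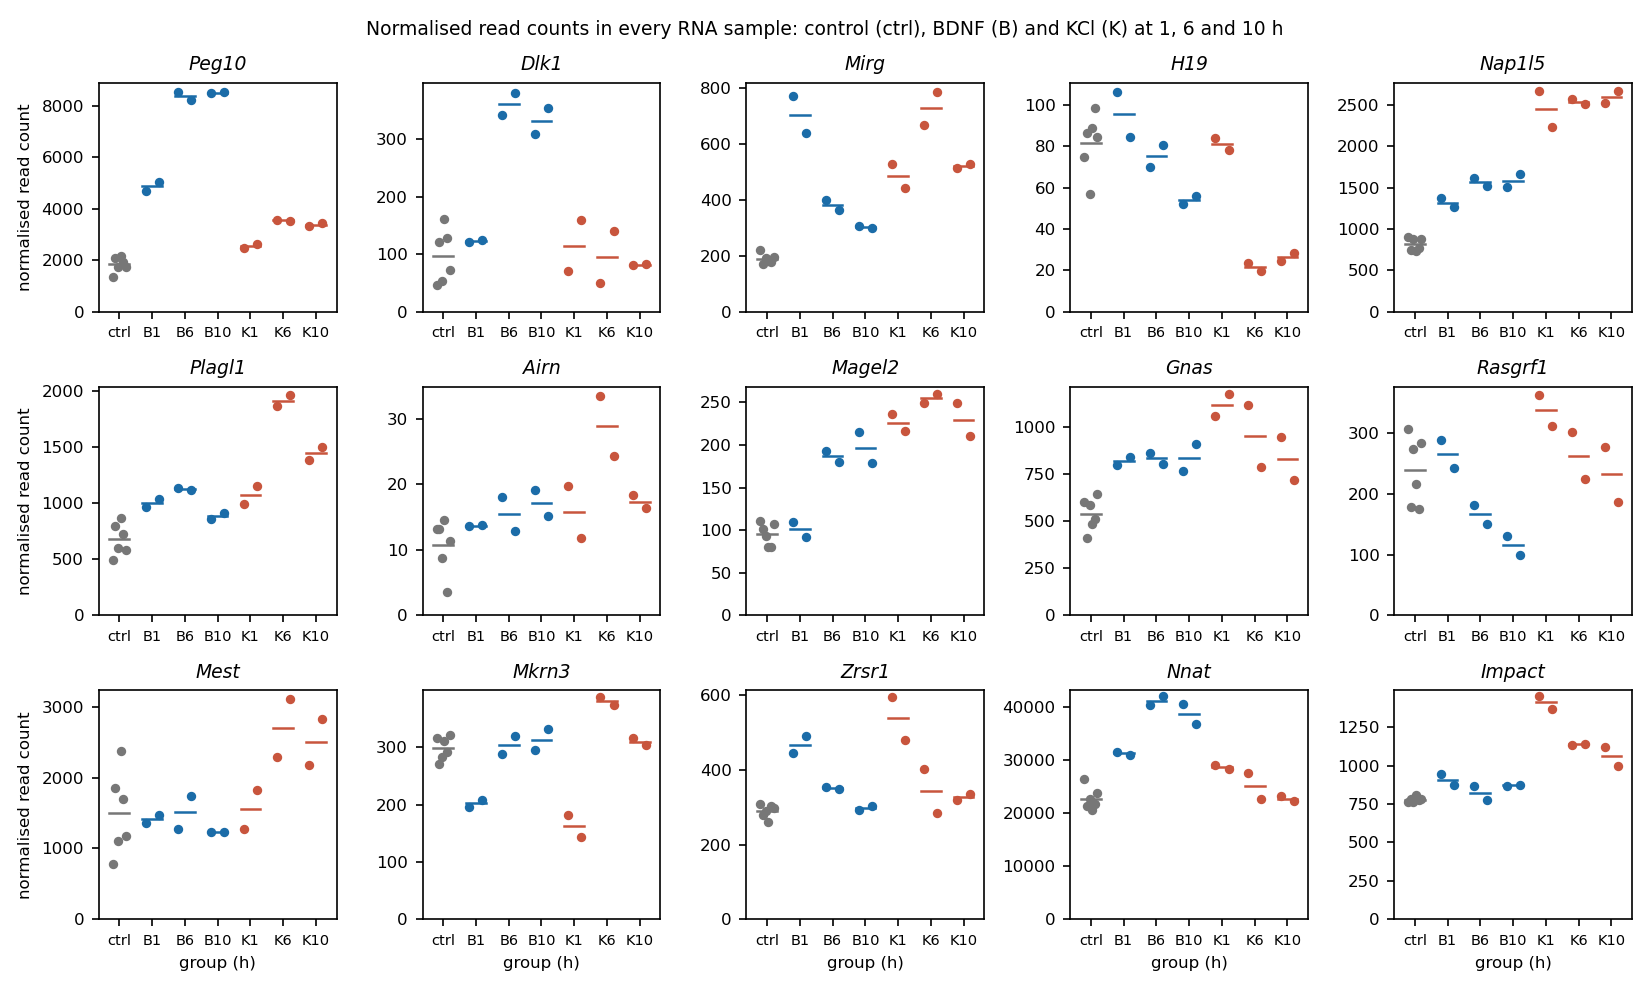
Normalised read counts (y axis, from 0) of the 15 members given in full, in every RNA sample of controls (grey, n = 6), BDNF (blue, n = 2 per time) and KCl (red, n = 2 per time), with a line at each group's mean. Peg10 and Dlk1 are highest at BDNF 6 and 10 h, Nap1l5 in all KCl groups, and H19 is lowest at KCl 6 and 10 h.

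The Dlk1-Dio3 domain on chromosome 12 holds paternally expressed protein genes and a row of maternally expressed noncoding RNAs. Meg3, Rian and Mirg lie in this order on the plus strand and are thought to be parts of 1 long transcript. Mirg (chr12:109729764-109749460), the last of them, had 172.2, 187.2 and 219.3 normalised reads as lowest, median and highest of the controls. BDNF gave 771.0 and 639.6 (1 h), 400.9 and 365.1 (6 h) and 306.3 and 298.2 (10 h). KCl gave 527.3 and 441.6 (1 h), 668.6 and 788.3 (6 h) and 513.4 and 530.4 (10 h). No stimulated sample overlapped the controls. Mirg rose 3.70-fold at BDNF 1 h (log2FC of 1.89, SE 0.10, adjusted p 1.85e-12, limma), 1.60-fold at BDNF 10 h (0.68) and 2.55-fold at KCl 1 h (1.35, adjusted p 3.65e-10). From BDNF 1 h to 10 h it fell by 1.21 (adjusted p 1.80e-07).

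Upstream of Mirg the changes were smaller. Rian rose by 0.28 at BDNF 1 h (limma, adjusted p 0.00165) and 0.36 at KCl 1 h (adjusted p 9.75e-05), from 5908 ± 392 in controls to 7187 ± 290 and 7564 ± 369. Meg3 was at 34650 ± 3344 in controls, and none of its differences at BDNF 1, 6 and 10 h or KCl 1 h passed the test (0.17, 0.15, 0.13 and -0.06). At KCl 6 h, Meg3, Rian and Mirg were 0.26, 0.77 and 1.94 above controls. Differences between these 3 genes were not tested.

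Dlk1 (chr12:109452823-109463336), a paternally expressed membrane protein that restrains Notch signalling and differentiation, was high late with BDNF. Controls had 45.97, 97.45 and 160.7 as lowest, median and highest. The BDNF samples had 121.6 and 124.4 (1 h), 342.3 and 381.5 (6 h) and 308.6 and 354.2 (10 h). The KCl samples had 70.38 and 159.3 (1 h), 49.16 and 141.2 (6 h) and 80.67 and 82.77 (10 h). The 4 samples of BDNF 6 and 10 h lay above all other samples. It rose 4.09-fold at BDNF 6 h (log2FC of 2.03, SE 0.52, adjusted p 0.00924, limma) and 3.74-fold at BDNF 10 h (1.90, adjusted p 0.0149). The call at 10 h was lost without BDNF 10 h library B (1.81) and with controls of the same time (1.76). The 3 highest controls were those highest in endothelium markers. Library B was the higher in both Dlk1 and these markers at KCl 1 h (933.5 against 416.1 summed normalised reads) and KCl 6 h (639.0 against 285.1). At BDNF 6 and 10 h these markers were at 250.4 to 495.0 summed normalised reads, against 275.8 to 1233 in controls. The part of such cells in the Dlk1 values was not tested.

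In the Peg3 domain on chromosome 7, Peg3 encodes a large zinc finger protein, Usp29 a deubiquitinase-like protein that starts beside it on the other strand, and Zim1 a maternally expressed zinc finger gene. Peg3 rose at 1 h with BDNF (0.54, limma, adjusted p 1.89e-06) and KCl (0.59, adjusted p 3.19e-07), from 4150 ± 286 to 6047 ± 337 and 6236 ± 326. It then lay below controls at BDNF 6 h (3016 ± 24.6, log2FC of -0.46) and 10 h (3293 ± 32.6, -0.33), both called. Usp29 and Zim1 also fell at BDNF 6 h (-0.74 and -0.82) and 10 h (-0.43 and -0.60). All 3 genes were thus DE-genes with lower levels late with BDNF. At KCl 6 h the same genes were 0.25, 0.74 and 0.21 above controls.

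In the Prader-Willi and Angelman region on chromosome 7, which is deleted in those syndromes in humans, Ndn, Magel2 and Mkrn3 are paternally expressed and Ube3a, a ubiquitin ligase, is maternally expressed in neurons. Magel2 (chr7:62377010-62381640), which acts in endosomal recycling, had 79.85, 96.96 and 110.7 as lowest, median and highest of the controls. Under BDNF the values were 109.5 and 92.35 (1 h), 192.8 and 180.2 (6 h) and 214.8 and 178.6 (10 h). Under KCl the values were 235.8 and 216.0 (1 h), 249.7 and 259.3 (6 h) and 249.3 and 210.2 (10 h). It overlapped the controls at BDNF 1 h and in no other group. It rose 2.37-fold at KCl 1 h (log2FC of 1.25, adjusted p 9.22e-08, limma) and 1.96-fold at BDNF 6 h (0.97, adjusted p 6.55e-06), while the difference at BDNF 1 h was 0.09 (adjusted p 0.664). The direct difference at 1 h was -1.16 (adjusted p 7.18e-06).

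Mkrn3, a RING finger gene that restrains the onset of puberty, went the other way at 1 h. Controls had 271.0, 302.1 and 322.3 as lowest, median and highest. It was at 196.2 and 208.4 at BDNF 1 h and 181.5 and 143.3 at KCl 1 h, below every control. Late BDNF samples had 289.2 and 320.2 (6 h) and 296.1 and 331.5. (10 h) Late KCl samples had 387.4 and 373.9 (6 h) and 316.6 and 303.9. (10 h) It was 1.48-fold lower at BDNF 1 h (log2FC of -0.56, adjusted p 0.000101, limma) and 1.85-fold lower at KCl 1 h (-0.89, adjusted p 1.37e-07). Ube3a fell at KCl 1 h (-0.47, adjusted p 2.94e-05), from 1176 ± 85.8 to 847 ± 106, and was 0.20 higher at BDNF 1 h (adjusted p 0.0522). At 1 h it was 0.68 higher with BDNF than with KCl (adjusted p 7.33e-06). Ndn rose at KCl 1 h (0.49, adjusted p 5.31e-07), and its BDNF differences of 0.08 at each time did not pass the test. All 4 genes of this region that were tested were DE-genes at KCl 1 h, 2 higher and 2 lower, in a comparison where 26.5% of all genes were higher and 28.2% lower.

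Several imprinted genes lie inside or across a host gene. Nnat (chr2:157560078-157562522), which modulates calcium stores, lies in an intron of Blcap. Its controls had 20460, 22220 and 26300 as lowest, median and highest. BDNF gave 31410 and 30960 (1 h), 40290 and 41980 (6 h) and 40470 and 36680 (10 h). KCl gave 29070 and 28210 (1 h), 27460 and 22580 (6 h) and 23130 and 22190 (10 h). All BDNF samples and both KCl 1 h samples lay above every control. It rose by 0.46, 0.86 and 0.77 with BDNF (adjusted p 9.15e-05, 2.88e-08 and 2.30e-07, limma) and by 0.34 at KCl 1 h. Blcap, on the opposite strand, rose by 0.72 and 0.61 at BDNF 6 and 10 h, with a difference of 0.06 at BDNF 1 h (adjusted p 0.521).

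Zrsr1, a splicing factor gene within an intron of Commd1, was highest at 1 h. Controls had 260.3, 293.9 and 307.7 as lowest, median and highest. The BDNF samples had 445.5 and 490.0 (1 h), 353.1 and 348.6 (6 h) and 293.9 and 302.0 (10 h). The KCl samples had 596.4 and 480.1 (1 h), 403.1 and 284.8 (6 h) and 320.2 and 336.5 (10 h). The 1 h samples of both stimuli lay above all controls. It rose by 0.69 at BDNF 1 h and 0.89 at KCl 1 h (adjusted p 2.89e-05 and 5.71e-07, limma) and was back near controls at BDNF 10 h (0.04, adjusted p 0.790). The call of 0.28 at BDNF 6 h was lost without either BDNF 6 h library. Commd1 rose at KCl 1 h by 0.30 (adjusted p 0.0532) and in no BDNF comparison. Trappc9, the host of Peg13, rose at KCl 1 h (0.38, adjusted p 0.00169), had BDNF differences of -0.08 to 0.01, none called, and was at -0.48 and -0.56 at KCl 6 and 10 h.

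Impact, which restrains the kinase GCN2 and so favours translation under stress, rose more with KCl than with BDNF at 1 h. Controls had 760.1, 778.0 and 809.9 as lowest, median and highest. Under BDNF the values were 945.8 and 872.4 (1 h), 864.8 and 775.9 (6 h) and 870.3 and 871.8 (10 h). Under KCl the values were 1455 and 1368 (1 h), 1137 and 1144 (6 h) and 1123 and 999.8 (10 h). All KCl samples lay above the BDNF samples. It rose by 0.86 at KCl 1 h (limma, adjusted p 4.04e-10, SE 0.06) and by 0.22 at BDNF 1 h (adjusted p 0.0102, lost without BDNF 1 h library A). The direct difference at 1 h was -0.63 (adjusted p 1.40e-06). In the comparisons with controls at BDNF 1, 6 and 10 h and KCl 1 h, Peg10, Mirg, Nap1l5, Plagl1, Gnas and Nnat were called higher each time. The 17 members not given in full ranged from -0.82 to 0.77 on the log2 scale.

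Chromatin was then examined at the same genes, a readout that did not enter the choice of the list. Of the 112 peaks tested with edgeR, 31 were called in at least 1 comparison, 17 as gained and 14 as closing DA-peaks. The other 81 of the 112 were called in none, beside 38721 of all 56383 peaks. At BDNF 1 h 13 were gained (11.6%) and 2 closing (1.79%), against 12.5% and 4.78% of all 56383 peaks. At BDNF 6 h 8 were gained (7.14%) and 1 closing (0.893%), against 8.88% and 1.75%. At BDNF 10 h 5 were gained (4.46%) and 1 closing, against 7.46% and 1.9%, and TMM scaling gave 7 gained of 7. The BDNF shares were thus at or below the background.

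With KCl the member peaks split more evenly. At KCl 1 h 6 were gained (5.36%) and 5 closing (4.46%), against 5.29% and 3.05% of all peaks, and TMM scaling gave 6 gained of 14. At KCl 6 h 3 were gained (2.68%) and 1 closing, against 5.44% and 2.06%. There TMM scaling gave 7 gained of 15 and DESeq2 3 of 12, so the direction at KCl 6 h depended on the scaling. At KCl 10 h 6 were gained and 7 closing (6.25%), against 5.91% and 1.96%. There were 36 promoter peaks, which overlap a window from 1000 bases before to 100 after a transcription start. Of these, 2 were gained at BDNF 1 h (5.56%), beside 12.5% of all peaks. At KCl 10 h 3 were closing (8.33%), beside 1.96% of all peaks, and 1 was gained. Each of BDNF 6 and 10 h and KCl 1 and 6 h had 0 or 1 gained and 0 or 1 closing. Promoter peaks of other genes were not counted apart. Single libraries moved the counts over all member peaks by more than 1.5 times. Calls fell to 6 without BDNF 1 h library B, to 5 and 4 without BDNF 6 h A or B, and to 2 and 3 without BDNF 10 h A or B. They fell to 4 and 2 without KCl 1 h A or B, to 2 without KCl 6 h A, and to 5 and 6 without KCl 10 h A or B, the letters giving the order of the columns.

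The largest gains were within host genes. In an intron of Usp29, a peak at chr7:6761066-6761412 had 1.21, 2.52 and 15.4 scaled counts as lowest, median and highest of the controls. BDNF gave 28.9 and 43.4 (1 h), 45.9 and 44.5 (6 h) and 22.1 and 37.9 (10 h). With KCl it had 12.9 and 5.10, 12.8 and 15.2, and 17.3 and 7.62 at 1, 6 and 10 h. All BDNF samples lay above every control. It gained at all 3 BDNF times (log2 fold changes 2.79, 3.10 and 2.54, adjusted p 5.11e-08, 1.40e-09 and 2.03e-05, edgeR), whereas the KCl differences of 0.72 to 1.38 were not called. RNA of Usp29 fell at BDNF 6 and 10 h, so the RNA of the gene and this peak went in opposite directions.

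Trappc9 on chromosome 15 held peaks of both kinds. A peak at chr15:72660460-72660777 gained with BDNF (2.79, 2.05 and 1.85) and was not called with KCl (-0.56 to 0.76). It had 51.9 and 37.6 scaled counts at BDNF 1 h against 1.09 to 10.8 in controls. A peak at chr15:72813612-72813811, between Peg13 and the Trappc9 start, gained at BDNF 1 and 6 h (2.18 and 1.81). By contrast, an exonic peak at chr15:72851681-72852420 gained at each KCl time (0.76, 0.91 and 1.08, adjusted p 0.0140, 0.00481 and 0.00011, edgeR) and was not called with BDNF (-0.54 to -0.23). It had 43.5, 52.2 and 76.1 as lowest, median and highest of the controls, and 93.2 and 93.0, 108 and 96.6, and 104 and 129 with KCl. In Usp29 a peak at chr7:6860662-6861117 likewise gained at each KCl time (0.99, 1.00 and 1.03), and also at BDNF 1 h (0.66, adjusted p 0.0558). These last peaks were singled out after their values were seen.

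**Figure D4:**
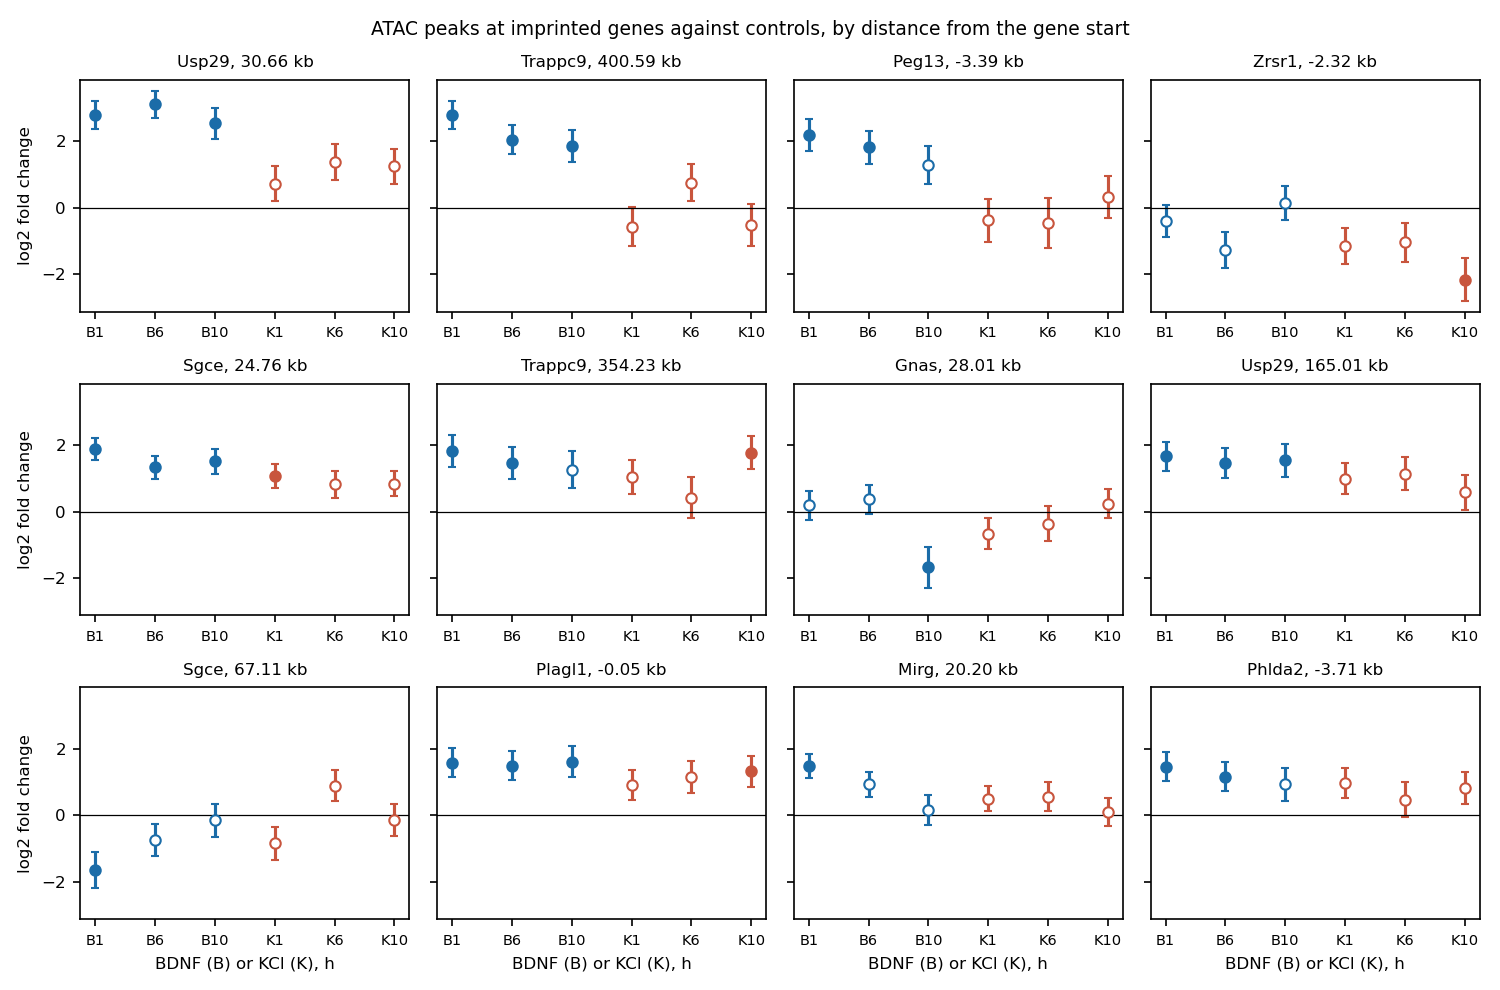
Log2 fold change ± SE (y axis) against controls of the 12 ATAC peaks at imprinted genes with the largest called change, with BDNF (B, blue) and KCl (K, red) at 1, 6 and 10 h on the x axis. Filled points were called by edgeR, and each title gives the gene and the distance of the peak from its start in kb. Rows of 3 filled blue points above 0 mark the peaks of Usp29, Trappc9, Sgce and Plagl1 that gained at each BDNF time.

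Plagl1 had 2 promoter peaks, of which 1 gained. The larger, at chr10:13090352-13091115 and the 88.57th percentile of peak levels, covers the promoter that RefSeq lists and was called in none of the 6 comparisons (0.32, -0.04 and -0.29 with BDNF). The smaller, at chr10:13060358-13060557 and the 15.13th percentile, had 4.30, 7.22 and 11.9 scaled counts as lowest, median and highest of the controls. It had 19.5 and 25.5, 17.8 and 24.3, and 23.2 and 23.4 with BDNF, all above the controls. It gained at BDNF 1, 6 and 10 h (1.57, 1.49 and 1.61, adjusted p 0.00475, 0.0129 and 0.0154, edgeR) and at KCl 10 h (1.32, adjusted p 0.0738). The promoter peak of Nap1l5 and both promoter peaks of Mest and the intronic peak beside the Peg10 start were also called in none of the 6 comparisons. For the Nap1l5 promoter the log2 fold changes were -0.20 to 0.16 with SE of 0.23 to 0.25. For the Peg10 and Sgce start they were -0.53 to 0.18.

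In the Prader-Willi and Angelman region, the Ube3a promoter peak closed at KCl 1 and 10 h, and those of Mkrn3 and Magel2 at KCl 10 h only. Of all peaks, 3.05% closed at KCl 1 h and 1.96% at KCl 10 h. Over all member peaks, 13 were called at KCl 10 h, and 4 with controls of the same time. The Ube3a promoter peak (chr7:59228331-59229549) had 447, 479 and 490 as lowest, median and highest of the controls. It had 417 and 432, 412 and 416, and 452 and 424 with BDNF, and 294 and 318, 381 and 415, and 406 and 354 with KCl. It closed at KCl 1 h (-0.63, SE 0.09, adjusted p 1.97e-06, edgeR) and 10 h (-0.32, adjusted p 0.0278), and the BDNF differences were not called (-0.20 to -0.12). Ube3a RNA was also lower at KCl 1 h. At KCl 10 h the promoters of Mkrn3 (-0.80, adjusted p 0.00416) and Magel2 (-0.68, adjusted p 0.0621) closed, and neither was called at KCl 1 or 6 h. An intronic peak near the Snurf start closed at KCl 10 h (-1.14, adjusted p 0.0378) and 1 h (-0.94, adjusted p 0.0718), while the Snrpn and Snurf promoter peak at chr7:60004891-60005278 was called at no KCl time (-0.47, -0.37 and -0.57). No promoter of the region was called at KCl 6 h. Magel2 RNA, by contrast, was at 249.3 and 210.2 at KCl 10 h, above the controls.

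Other called peaks lay in Sgce, Gnas, Zrsr1, Mirg, Phlda2, Airn, Asb4, Meg3 and Rasgrf1. In an intron of Sgce the peak at chr6:4722273-4722615 gained at all BDNF times (1.33 to 1.88) and at KCl 1 h (1.07). Just past the end of Mirg, a peak at chr12:109749788-109750147 gained at BDNF 1 h (1.47, adjusted p 0.00101, edgeR) and not at other times, and Mirg RNA was highest with BDNF at that time. A peak upstream of Zrsr1 closed at KCl 10 h (-2.16, adjusted p 0.0269). Further into Usp29, a peak at chr7:6895487-6895685 gained at each BDNF time (1.47 to 1.66), and one in Trappc9 at chr15:72706889-72707053 gained at BDNF 1 and 6 h (1.82 and 1.46) and KCl 10 h (1.76). Upstream of Phlda2 a peak at chr7:143506753-143506966 gained at BDNF 1 and 6 h (1.45 and 1.16). A Gnas peak at chr2:174312247-174312406 closed at BDNF 10 h (-1.68) and an Sgce peak at chr6:4679937-4680254 at BDNF 1 h (-1.65). The Peg3 control region held the peak of highest level among the members, at chr7:6727406-6728996. Its level was at the 99.94th percentile of all peaks, with 923, 973 and 1070 scaled counts as lowest, median and highest of the controls and 836 to 1060 in stimulated samples. It holds 9 YY1 matches and 37 CpG pairs over 1591 bases and was called in none of the 6 comparisons.

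Sequence matches were counted over all peaks. An AP-1 match was in 16.3% of the 300-base windows of the 56383 peaks tested, and a YY1 match in 5.76% (and in 6.05% of RefSeq promoters). Of all peaks gained with BDNF at any time, 63.7% held an AP-1 match, and of the 13 such peaks at imprinted genes 8 did (61.5%). For peaks gained with KCl the shares were 49.3% over all and 3 of 9 (33.3%) at imprinted genes. For peaks called in no comparison they were 8.74% and 4 of 81 (4.94%). These differences in share were not tested. A match is a description of the letters and not a binding site.

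Other imprinted genes, and genes that set or read imprints, were examined from 2 further lists. Of 43 other imprinted genes, 40 were in the table and 26 were tested. Of the 26, BDNF raised 8 and lowered 3 (1 h), raised 11 and lowered 6 (6 h), and raised 10 and lowered 6 (10 h). These are 30.8% and 11.5%, 42.3% and 23.1%, and 38.5% and 23.1%, beside 21.3% and 19%, 22.1% and 21.1%, and 21.1% and 19.5% of all genes. KCl for 1 h raised 8 (30.8%) and lowered 3 (11.5%), beside 26.5% and 28.2%. Within the Dlk1-Dio3 domain, Dio3, which inactivates thyroid hormone, was at 30.2 ± 4.71 in controls and rose to 116 ± 8.36 at BDNF 6 h (log2FC of 1.91, adjusted p 9.05e-08, limma) and 61.7 ± 0.611 at 10 h. It was at 10.1 ± 0.415 and 9.72 ± 1.65 at KCl 6 and 10 h. Rtl1, a retrotransposon-derived gene there, rose at BDNF 1, 6 and 10 h (0.54, 0.66 and 0.58) and fell at KCl 1 h (-1.40, adjusted p 2.27e-06). Begain, at the near end of the domain, rose by 1.02 and 0.99 at BDNF 6 and 10 h.

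Elsewhere, Zdbf2 rose from 1065 ± 115 to 3289 ± 136 at BDNF 1 h (1.63, limma, adjusted p 1.05e-11) and 4149 ± 661 at KCl 1 h (1.96). Kcnk9, a potassium channel gene imprinted with Peg13, rose at BDNF 6 and 10 h (2.03 and 1.85) and KCl 1 h (0.75), and was not called at BDNF 1 h (-0.11, adjusted p 0.530). Inpp5f rose by 0.76, 0.72 and 0.81 with BDNF and 0.72 at KCl 1 h. Th, at 8.05 ± 3.67 in controls, rose to 25.5 ± 0.470 at BDNF 1 h, and Htr2a fell there from 46.9 ± 6.38 to 17.1 ± 3.72 (-1.41, adjusted p 8.06e-05). Of 30 regulators, 27 were tested. Of these, 9 rose (33.3%) and 4 fell (14.8%) at BDNF 1 h, beside 21.3% and 19% of all genes. At BDNF 6 h 3 rose (11.1%) and 9 fell (33.3%), beside 22.1% and 21.1%, and at BDNF 10 h 2 rose (7.41%) and 11 fell (40.7%), beside 21.1% and 19.5%. At KCl 1 h 8 rose (29.6%) and 10 fell (37.0%), beside 26.5% and 28.2%. Tet3, a methylcytosine dioxygenase, rose at BDNF 1 h (0.85, adjusted p 8.95e-10, limma). Tet2 rose at BDNF 1 h (0.57) and fell at KCl 1 h (-0.66), a difference of 1.23 between the stimuli (adjusted p 3.64e-09). The DNA methyltransferase gene Dnmt3b fell at KCl 1 h (-1.26, adjusted p 7.67e-05) from 55.2 ± 5.17 to 23.5 ± 10.6.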

How the data were processed

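RNA-seq (oligo-dT, strand not stated) and ATAC-seq were measured in 18 samples each, 2 in each of 9 groups. The authors aligned RNA reads with TopHat2 to mm10 and deposited a signal per gene, counts divided by DESeq2 size factors (100.0% of values were whole reads within 0.01 once multiplied back). The authors aligned ATAC reads with Bowtie2, called peaks with MACS2 per sample, and deposited a count of reads per peak for peaks found in at least 2 samples. These are raw counts, although named normalised. Gene names came from GENCODE (26203 of 26709 matched). Tables of the authors' own comparisons hold log2 fold changes and p-values, which were not used beyond gene names.

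RNA was fitted with limma 3.58.1 (trend, robust, R 4.3.3) on log2(value + 1) over 16209 genes with a mean of at least 10, with 7 levels, or 9 for control times. ATAC was fitted with edgeR 4.0.16 (quasi-likelihood, LOESS offsets) over 56383 peaks, and peak values printed are LOESS-scaled counts. Calls are two-sided at a Benjamini-Hochberg adjusted p below 0.1. Depth was 8.51 to 36.7 M reads (RNA) and 1.24 to 6.24 M (ATAC), so low genes and small peaks rest on few reads. The fits were tested on simulated data. DESeq2 1.42.0, other scalings, filters, pseudocounts, controls and left-out libraries were tried as alternatives.

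The members and the gene lists were chosen with earlier results of these data known. For H19 and the 14 other members with the largest log2 fold change, every stimulated sample is given beside the lowest, median and highest control. The 12 called peaks with the largest change are given by log2 fold change, some of them with sample values. Of the promoter peaks of those members, only some are described. Genes of the 2 further lists are named when called with a log2 fold change of at least 0.8 in size.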

Additional observations from a re-analysis of the deposited data

Results flagged for a closer look

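Several members were flagged because their change differed between stimuli or times in a direct limma test. Between BDNF 1 h and KCl 1 h, Peg10 (0.94), Mirg (0.54) and Mkrn3 (0.32) were higher with BDNF on the log2 scale. Nap1l5 (-0.89), Magel2 (-1.16), Gnas (-0.44) and Impact (-0.63) were lower with BDNF. The Gnas difference was lost without any 1 of the 4 libraries compared, and that of Mkrn3 without BDNF 1 h B, without KCl 1 h B and with DESeq2.

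Between BDNF 10 h and BDNF 1 h, Peg10 (0.81), Magel2 (0.95), Mkrn3 (0.63), Nnat (0.31) and Nap1l5 (0.27) were higher at 10 h. H19 (-0.80), Mirg (-1.21), Rasgrf1 (-1.21) and Zrsr1 (-0.65) were lower at 10 h. The Nap1l5 call was lost without BDNF 1 h B (0.21) or BDNF 10 h B (0.20), the Nnat call without BDNF 1 h B (0.29) or BDNF 10 h A (0.23), and the H19 call without BDNF 1 h A (-0.64).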

How the results depend on the processing

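Counts of members called in RNA stayed within 1.5 times under every alternative that kept all stimulated libraries. Leaving out 1 library gave 10 to 13 members at BDNF 1 h, 13 to 19 at 6 h, 11 to 19 at 10 h (11 without BDNF 10 h B), 18 to 21 at KCl 1 h, 20 to 24 at 6 h, 13 to 19 at 10 h, 9 to 11 between stimuli, 10 to 12 between BDNF times and 0 to 0 between control times. With only the 3 controls lowest in endothelium markers, chosen after seeing the data, 13, 13, 14, 21, 21 and 16 members were called. Zrsr1 at KCl 6 h went to -0.02 without KCl 6 h A and 0.48 without B. With the column letter as a replicate block, the counts were 13, 15, 19, 21, 25 and 18 against controls, 13 between stimuli, 14 between BDNF times and 0 between control times. Over all genes tested, deviations of the A samples from their group means correlated between groups at -0.31 to 0.42 (median 0.06). Of 36 pairs of groups, 13 were above 0.1. Summed endothelium markers, Dlk1 and Mest were each higher in B than in A in every group except controls of 10 h, where A was higher. The letters may thus not stand for the same thing in each group, so the block by letter cannot settle whether samples were paired. The labels do not say what the letters stand for, and a shared culture or batch was not tested. For ATAC, no paired analysis was possible because the columns carry no replicate number.

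Peak counts depended more on the settings. At an adjusted p below 0.01 they were 9, 5 and 3 for BDNF and 2, 2 and 4 for KCl. With controls of the same time they were 3 at BDNF 10 h, 5 at KCl 1 h and 4 at KCl 10 h. At KCl 6 h TMM scaling gave 15 and DESeq2 12. Leaving out 1 library gave 6 to 15, 4 to 11 and 2 to 8 for BDNF and 2 to 12, 2 to 5 and 5 to 15 for KCl. Apart from the fewer samples, the cause was not tested.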
